A study of Mus musculus with 14 samples.

Results

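Small intestinal stem cells that had lost Cdx2 were set against true stomach stem cells, to see which genes still kept the converted cells apart from the cells they resembled. The comparison used 2 arrays of Cdx2null SI SCs and 2 arrays of control Sto SCs, 4 of the 14 arrays of the series. A gene was singled out where both Cdx2null arrays lay above both stomach arrays, or both lay below. Of 18820 genes, 4474 (23.8%) met that rule, 1929 with Cdx2null SI SCs higher (10.2%) and 2545 with Cdx2null SI SCs lower (13.5%). With 2 arrays against 2, random order alone often meets that rule, so the count by itself shows no surplus of separated genes. The higher share was 43.1%, but 52.6% after quantile normalisation and 65.8% after centring the arrays on their medians, so the balance of directions turned with the scaling. For most of these the nearest arrays of the groups lay close together. In 17 genes (0.0903%) the nearest arrays were at least 1 log2 unit, or 2-fold, apart, 1 higher and 16 lower in Cdx2null SI SCs. The measured levels chose these genes, so their differences are given as a description, and their share carries no test. Around that limit Cyp2b10 lay just inside with a gap of 1.02 and Mei4 just outside with 0.997.

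Every group came from mice of a mixed C57Bl6j/CBA background that carried a Cdx2 null allele, a floxed Cdx2 allele (Cdx2-/fl) and Lgr5-EGFP-Ires-CreERT2, which drives both a green reporter and an inducible Cre from the Lgr5 locus. Cdx2null SI SCs came from small intestinal organoids treated with 4-hydroxytamoxifen, so that Cre removed the remaining Cdx2 allele in Lgr5 cells. Control Sto SCs (n = 2, from pyloric glands) and control SI SCs (n = 3) had the same genotype without that treatment, so every control already lacked 1 functional copy of Cdx2. The stem cells (SCs) were sorted as the brightest Lgr5-EGFP cells of clonal organoids expanded in Sto medium, which adds Wnt, Fgf10 and gastrin to Egf, Noggin and R-spondin. Another 7 arrays held whole, unsorted control organoids of stomach (n = 3) or small intestine (n = 4) in Sto or SI medium, and these took no part in choosing the genes. The sorted cells came from clonal lines, and the study describes 2 samples of each sorted group. The labels give the whole organoids the same Cdx2-/fl genotype, while the study's text calls the glands and crypts they grew from wild-type, and the medium of the third control SI SC array is not given in the sources used here. Whether replicates came from separate animals is not stated, so p-values measure the spread between these samples.

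Cdx2 is a homeobox transcription factor that directs endoderm to intestinal fate, and epithelium without it takes on features of the stomach. The pyloric glands of the distal stomach are renewed by Lgr5-positive stem cells and make mucus and trefoil peptides, and their identity rests on transcription factors such as Sox2 and Nkx6-3. Intestinal crypts share Lgr5 but make enterocytes, goblet cells and Paneth cells. A bulk measurement of sorted cells cannot tell fewer cells of a type from less RNA per cell.

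The arrays were not alike within the Cdx2null group. Cdx2 stood at 8.41 in the library labelled Cdx2null SI SCs 1 and 4.88 in the library labelled Cdx2null SI SCs 2, against 5.08 and 4.67 in control Sto SCs and 8.94 to 10.05 in control SI SCs. The Cdx2 probes also read a part of the gene left in place by Cre, so the level is no direct check of the deletion. Whether all cells of the first library had lost Cdx2 or had finished converting was not tested, and every Cdx2null mean below includes it. Lgr5, the gene behind the sort, stood at 10.78 and 11.32 in Cdx2null SI SCs and at 10.77 and 11.14 in control Sto SCs, so the groups overlapped. The leukocyte, endothelial and mesenchymal markers given next lay at the low end of the scale. The array medians over all probe sets ran between 4.72 and 5.05. Ptprc, carried by all leukocytes, was at 3.85 and 3.75 in Cdx2null SI SCs and at 4.01 and 4.10 in control Sto SCs, and the endothelial Pecam1 was at 3.69 and 3.86 against 3.83 and 3.83. Col3a1 of mesenchyme was at 4.55 and 4.50 in Cdx2null SI SCs and at 4.60 and 4.55 in control Sto SCs. Markers of differentiated epithelial cells were not all low. Lyz1 of Paneth cells was at 7.29 and 11.82 in Cdx2null SI SCs and at 5.60 and 10.76 in control Sto SCs. On both Cdx2null arrays Defa24 and Ang4, also of Paneth cells, lay near the mean of control Sto SCs. Pgc of chief cells was at 11.17 and 8.07 against 9.71 and 9.84, and Alpi of enterocytes at 3.69 and 3.77 against 3.49 and 3.67. The part of such cells in the sorted RNA was not tested. Among organoids, the library labelled SI organoids SI med 1 carried stomach levels of Cdx2 (5.52) and Sox2 (9.21), and organoid results are given without it where that changed them.

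Few genes lay far apart between Cdx2null SI SCs and control Sto SCs. The groups differed by at least 2-fold in mean level in 64 genes that were higher and 144 that were lower in Cdx2null SI SCs, and the median difference over all genes was -0.01. limma, fitted on the 7 sorted arrays with Benjamini-Hochberg adjustment, called 0 genes (0%) at an adjusted p under 0.05 and a 2-fold difference. At an unadjusted p under 0.05 it listed 286 genes (1.52%), 69 higher and 217 lower in Cdx2null SI SCs. That share is below what the threshold alone would list if no gene differed. The methods' t-test listed 15 genes at an unadjusted p under 0.05 with a 2-fold difference and 0 after adjustment. The same limma fit called 538 genes (2.86%) between stomach and intestinal control SCs. The lowest adjusted p between Cdx2null SI SCs and control Sto SCs was 0.684, shared by Nkx6-3, Zfp9, Armcx2 and Cd68, all of them lower in Cdx2null SI SCs.

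**Figure D1:**
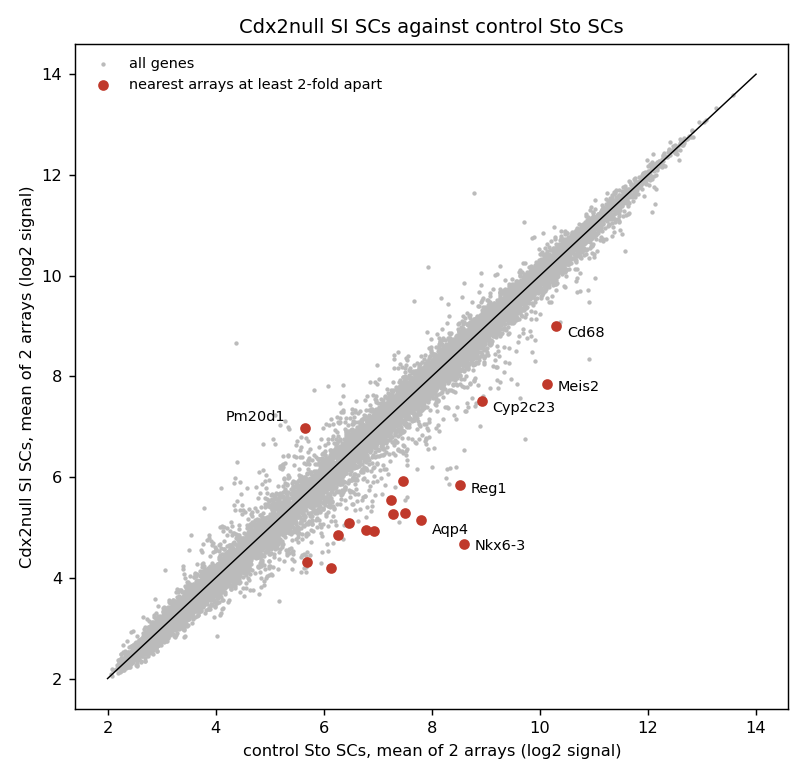
Mean log2 signal of each of 18820 genes in Cdx2null SI SCs (vertical axis, 2 arrays) against control Sto SCs (horizontal axis, 2 arrays), with the line of equal level. Red points are the 17 genes whose nearest arrays were at least 2-fold apart, of which 16 lie below the line and Pm20d1 above it.

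Nkx6-3 had by far the widest gap, and Meis2 was the other homeobox gene among the 17. Nkx6-3, a homeobox factor of the antrum and pylorus needed for gastrin-producing endocrine cells, was at 4.43 and 4.90 in Cdx2null SI SCs, against 9.11 and 8.08 in control Sto SCs. In control SI SCs it was at 4.57, 5.44 and 3.92, so that both Cdx2null arrays lay within the intestinal range and neither approached the stomach. The difference from the stomach was -3.93 (SE 0.53, 15.2-fold lower), with the nearest arrays 9.08-fold apart, the widest gap of any gene. Meis2, a TALE homeobox cofactor of Hox and other homeobox proteins, was at 8.66 and 7.04 in Cdx2null SI SCs, against 10.44 and 9.82 in control Sto SCs and 7.0, 6.66 and 5.02 in control SI SCs. It lay between the organs on both arrays, the first nearer the stomach and the second at the edge of the intestinal range (difference -2.27, SE 0.75, adjusted p = 1 in limma).

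Among the organoid arrays the level of Nkx6-3 in stomach organoids differed between the media, with only 1 array in Sto medium. Whether this lay in the medium or in that library was not tested. Stomach organoids had 10.50 and 10.13 in SI medium and 4.93 in Sto medium, and small intestinal organoids had 4.15 in Sto medium and 5.13 and 5.04 in SI medium. The library labelled SI organoids SI med 1 was at 9.43. The stomach organoid in Sto medium was thus as low as the intestinal ones, and with that library left out the difference of 3.75 between the origins (SE 0.91) had an adjusted p of 0.119 in limma. Meis2 was at 10.66 and 10.59 in stomach organoids in SI medium and 8.73 in Sto medium, against 8.15 in small intestinal organoids in Sto medium and 9.31 and 7.51 in SI medium, so that the origins overlapped.

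The promoter of Meis2 is shown because, of the 12 genes that lay on the intestinal side of the stomach, it was the only gene to hold a Cdx2-type motif among the 7 with a RefSeq promoter. The motif was searched as CAATAAA or TAATAAA on either strand, in 250 bases before to 50 after the start. Of all 14749 tested genes with such a promoter, 7.77% held it. The sequence is RefSeq's at chr2:116064570-116064869 of GRCm38.p6, on the minus strand. Capitals mark the motif, the reverse complement of CAATAAA, whose first printed base is at position -213 from the start. A match describes the letters only.
Meis2: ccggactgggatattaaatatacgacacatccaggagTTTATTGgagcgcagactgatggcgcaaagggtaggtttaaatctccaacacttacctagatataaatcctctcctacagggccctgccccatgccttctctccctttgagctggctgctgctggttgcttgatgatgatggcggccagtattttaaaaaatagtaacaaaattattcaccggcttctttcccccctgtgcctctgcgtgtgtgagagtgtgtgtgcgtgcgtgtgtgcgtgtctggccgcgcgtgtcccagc

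Of the 17 genes, 3 encode secreted lectins. The list of 25 secreted defence proteins holds Reg3b of these, but not Itln1 or Reg1. On that list, 1 was higher (4%) and 5 were lower (20%) in Cdx2null SI SCs without overlap, beside 10.2% and 13.5% of all genes. Itln1, intelectin 1, which binds microbial glycans, was at 5.40 and 5.15 in Cdx2null SI SCs, against 7.29 and 7.30 in control Sto SCs. Reg3b, an antimicrobial C-type lectin, was at 4.85 and 5.04 in Cdx2null SI SCs, against 6.61 and 6.94 in control Sto SCs. Reg1, a regenerating islet-derived lectin, was at 4.64 and 7.03 in Cdx2null SI SCs, against 8.29 and 8.75 in control Sto SCs. In none of these did the groups overlap, but the intestinal controls stood differently for each. Control SI SCs had 5.16, 6.82 and 6.01 of Itln1, and 7.10, 6.07 and 5.53 of Reg1, around or above the Cdx2null arrays. They had 9.04, 8.20 and 7.16 of Reg3b, above both other groups. Reg3b and Reg1 lie in the Reg gene cluster of chromosome 6, with 3 genes between them, and its members are much alike, so that probes may also read relatives. Reg1 was at 4.67 and 9.55 in stomach organoids in the same SI medium, so it varied widely between replicates. Itln1 was called lower in stomach than in small intestinal organoids (-5.61, SE 0.55, adjusted p = 0.0128, without the odd library), the opposite of the order in sorted SCs.

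Aqp4, a water channel of the basolateral membrane of gastric parietal cells, was at 4.78 and 5.53 in Cdx2null SI SCs, against 8.54 and 7.07 in control Sto SCs and 6.97, 7.93 and 7.25 in control SI SCs. Aqp4 and Reg3b were the 2 genes that lay at least 2-fold below every control array of both organs, so they did not place the Cdx2null cells between stomach and intestine. The parietal proton pump subunit Atp4a did not separate, at 6.47 and 5.89 in Cdx2null SI SCs and 6.29 and 6.58 in control Sto SCs.

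Genes best known from immune cells were also low. Cd68, a lysosomal membrane glycoprotein best known from macrophages, was at 8.81 and 9.18 in Cdx2null SI SCs, against 10.26 and 10.36 in control Sto SCs and 8.56, 8.70 and 8.51 in control SI SCs. Cd244a, a SLAM-family receptor of natural killer cells, was at 4.47 and 6.12 in Cdx2null SI SCs, against 7.41 and 7.59 in control Sto SCs and 4.37 to 4.55 in control SI SCs. Cd68 lay just above the intestinal range on both arrays, while Cd244a was within it on the first array only. Cd244a and Itln1 are near neighbours on chromosome 1, with 1 gene between them. Of the 14 leukocyte genes listed, Cd68 among them, 1 was higher (7.14%) and 6 were lower (42.9%) in Cdx2null SI SCs without overlap, beside 10.2% and 13.5% of all genes, and the list's mean level was 4.26 and 4.34 in Cdx2null SI SCs against 4.29 and 4.38 in control Sto SCs. Mesenchymal genes had 0 higher and 2 of 14 lower (14.3%), and endothelial genes 0 higher and 3 of 10 lower (30%). The part of other cell types in the level of Cd68 was not tested.

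A further 5 genes on the intestinal side were of mixed function, with group means between the organs. Zfp9, a zinc finger protein, was at 4.95 and 4.89 in Cdx2null SI SCs, against 7.14 and 6.71 in control Sto SCs and 3.20, 3.73 and 3.07 in control SI SCs. Armcx2, an X-linked armadillo-repeat protein, was at 4.77 and 4.93 in Cdx2null SI SCs, against 6.30 and 6.22 in control Sto SCs and 3.63, 3.56 and 3.94 in control SI SCs. For these 2 genes the replicates were tight, every Cdx2null array lay above every intestinal one, and 55.8% and 55.4% of the distance between the organs was left. Slc16a7, a monocarboxylate transporter, was at 5.53 and 6.31 in Cdx2null SI SCs, against 7.49 and 7.43 in control Sto SCs and 5.24, 5.08 and 5.81 in control SI SCs. Zfp532, another zinc finger protein, was at 5.10 and 5.08 in Cdx2null SI SCs, against 6.22 and 6.73 in control Sto SCs and 4.15 to 4.82 in control SI SCs. AI467606, a gene of unassigned function, was at 3.77 and 4.63 in Cdx2null SI SCs, against 6.50 and 5.77 in control Sto SCs and 3.41 to 4.32 in control SI SCs. Slc16a7 and AI467606 overlapped the intestinal controls on 1 array each, and Zfp532 on neither.

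The last genes of the 16 were 2 cytochrome P450 enzymes and Dppa2. On the list of 38 xenobiotic metabolism genes, 3 were higher (7.89%) and 6 lower (15.8%) without overlap, close to the shares of all genes. Cyp2c23, also on the intestinal side and an arachidonic acid epoxygenase, was at 7.26 and 7.75 in Cdx2null SI SCs, against 9.0 and 8.84 in control Sto SCs and 6.92, 5.18 and 6.34 in control SI SCs. It was the only gene of the 16 that was also called higher in stomach organoids (2.90, SE 0.20, adjusted p = 0.00361), where stomach arrays had 7.89 to 8.61 and small intestinal arrays 4.95 to 5.60 apart from the odd library at 7.77. Cyp2b10, a drug-inducible P450, was at 4.36 and 4.26 in Cdx2null SI SCs, against 6.03 and 5.37 in control Sto SCs and 5.30, 5.19 and 5.54 in control SI SCs. Dppa2, a gene of pluripotent cells, was at 5.83 and 5.25 in Cdx2null SI SCs, against 7.63 and 6.87 in control Sto SCs and 6.77, 6.04 and 6.25 in control SI SCs. Cyp2b10 and Dppa2 were below the arrays of both organs, by less than the 1 log2 unit that set Aqp4 and Reg3b apart. P450 genes have close relatives that may share probes.

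Pm20d1, a secreted enzyme that makes N-acyl amino acids, was the only gene higher in Cdx2null SI SCs by the 2-fold gap. It was at 6.96 and 6.99 in Cdx2null SI SCs, against 5.59 and 5.70 in control Sto SCs and 5.95, 6.41 and 5.58 in control SI SCs. Both Cdx2null arrays lay above every control array of either organ (difference from stomach 1.33, SE 0.26, adjusted p = 1).

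**Figure D2:**
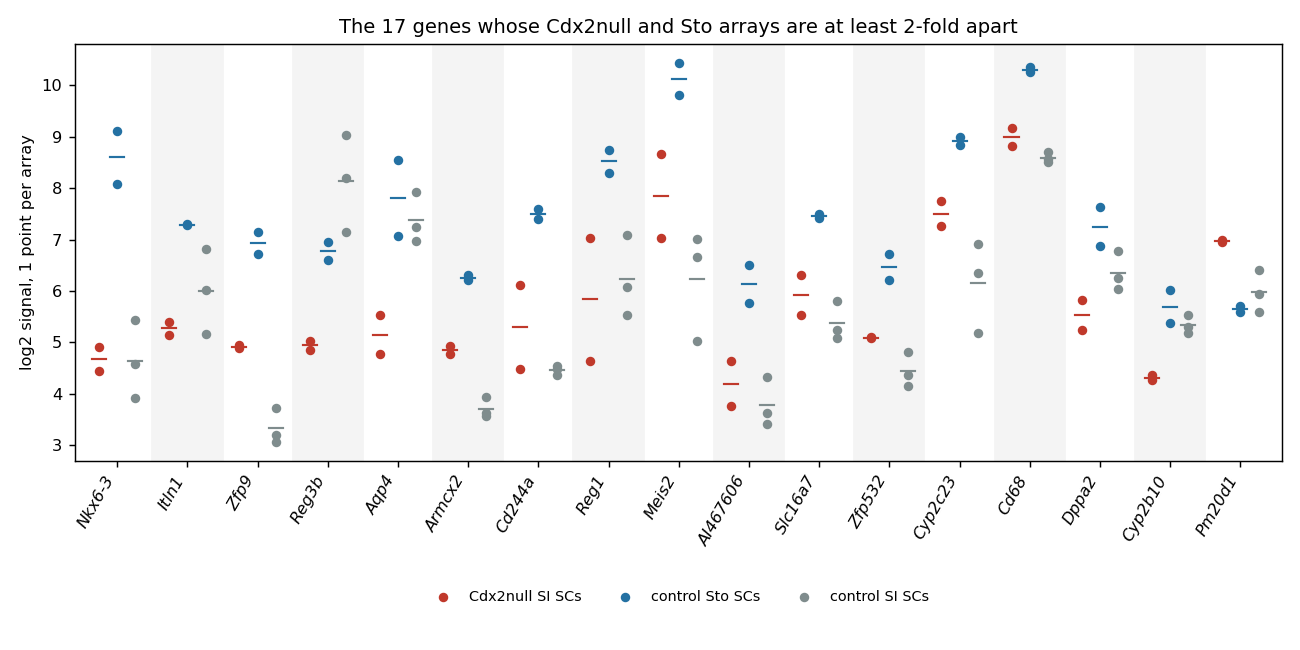
Log2 signal of the 17 genes on each array (1 point per array, bars are group means) for Cdx2null SI SCs (red), control Sto SCs (blue) and control SI SCs (grey), the lower genes ordered by gap. Nkx6-3 has Cdx2null arrays at 4.43 and 4.90, beside the intestinal ones, and Pm20d1 at the right end is the only gene with the Cdx2null arrays on top.

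Of the 17 genes, 12 therefore lay on the intestinal side, meaning that the organs' stem cells differed by at least 1 log2 unit and the Cdx2null cells lay from the stomach towards the intestine. Another 2 lay outside both organs and 3 met neither description. Of the 12, Itln1 (156% of the distance left) and Reg1 (117%) had group means beyond the intestinal mean. For both, limma did not call the difference between the organs' sorted SCs (adjusted p = 0.187 and 0.170). With a smaller gap of 0.5, 99 genes separated, 21 higher and 78 lower in Cdx2null SI SCs. Among the 78 lower genes, 51 (65.4%) were higher in control Sto SCs than control SI SCs by at least 1 log2 unit, against 4.56% of all genes. Those values share the stomach arrays with the choice of genes and are given side by side only. All 17 genes kept the 2-fold gap when any of the 4 arrays was left out, as the rule makes certain, while the number of genes with such a gap among 3 arrays ran between 98 and 291. It was 100 with the first Cdx2null array left out and 291 with the second left out. The gap of 0.5 without control Sto SCs 2 held 298 higher and 288 lower genes, so the excess of lower genes was absent without that array.

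The organoid arrays took no part in the choice and so allow a test of organ of origin. With all 7 arrays limma called 0 genes (0%) between stomach and small intestinal organoids at an adjusted p under 0.05, and 2595 at an unadjusted p under 0.05. Without the library labelled SI organoids SI med 1 it called 371 genes (1.97%), 147 higher (0.781%) and 224 lower (1.19%) in stomach organoids. Of the 78 genes lower in Cdx2null SI SCs, 8 (10.3%) were called higher in stomach organoids and 1, Itln1, lower. Of the 21 genes higher in Cdx2null SI SCs, 5 (23.8%) were called lower in stomach organoids and 0 higher.

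These 13 genes, Itln1 being set aside, were called on organoid arrays not used to choose them, with the odd library left out. That library stood out by its stomach levels of Cdx2 and Sox2, which themselves differ between the organs. The 13 are the called genes of matching direction, so their place on the intestinal side of the stomach level follows from that choice. Pla2g10, a secreted phospholipase A2, was at 4.84 and 6.88 in Cdx2null SI SCs, against 9.06 and 7.57 in control Sto SCs, and was higher in stomach organoids by 3.91 (SE 0.36, adjusted p = 0.0109). Pla2g4c, a cytosolic phospholipase A2, was at 7.54 and 7.69 in Cdx2null SI SCs, against 9.50 and 8.38 in control Sto SCs, and was higher in stomach organoids by 4.99 (SE 0.57, adjusted p = 0.0202). The other lower genes were Cyp2c23, the mitochondrial carbonic anhydrase Car5b, the G protein subunit Gna14, the antigen-presenting molecule Mr1, the pseudokinase Trib2 and the mucosal chemokine Cxcl17, with gaps between 0.513 and 1.09.

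The 5 higher genes were Rarb, Adgrg7, Car8, Upb1 and Sox6. Rarb, a retinoic acid receptor and itself a retinoic acid target, was at 7.10 and 6.99 in Cdx2null SI SCs, against 4.36 and 6.03 in control Sto SCs, where the mean in control SI SCs was 7.20. Both Cdx2null arrays kept the intestinal level, and Rarb was lower in stomach organoids by 2.99 on the log2 scale (difference -2.99, SE 0.26, adjusted p = 0.00852). Car8, a carbonic anhydrase-related protein without catalytic activity, was at 6.43 and 6.65 in Cdx2null SI SCs, against 5.66 and 5.48 in control Sto SCs and a mean of 8.42 in control SI SCs. Adgrg7, an adhesion G protein-coupled receptor, was at 11.25 and 6.10 in Cdx2null SI SCs, against 3.60 and 5.16 in control Sto SCs and a mean of 11.05 in control SI SCs. The difference of 4.29 (SE 1.45) for Adgrg7 came mostly from the library labelled Cdx2null SI SCs 1. Sox6, a SoxD transcription factor, was at 6.71 and 5.73 in Cdx2null SI SCs, against 5.17 and 5.22 in control Sto SCs.

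Foxc1 and Cdkn2a were among the genes higher than in the sorted control SCs of either organ. Foxc1, a forkhead factor, was at 5.0 and 5.07 in Cdx2null SI SCs, against 4.11 and 4.14 in control Sto SCs and a mean of 3.50 in control SI SCs. Cdkn2a, which encodes the p16 and Arf cell cycle inhibitors, was at 6.55 and 6.57 in Cdx2null SI SCs, against 5.69 and 5.82 in control Sto SCs and a mean of 5.54 in control SI SCs. For both, the Cdx2null arrays lay above the sorted controls of both organs, with gaps of 0.867 and 0.731 from the stomach and adjusted p = 1 in limma. Whole organoids were not lower throughout. Cdkn2a was at 6.93, 7.12 and 6.70 in stomach organoids. In small intestinal ones it was at 6.62 in Sto medium and 5.37 and 3.73 in SI medium, apart from the odd library at 7.43. Aadac, a microsomal deacetylase of the small intestine and liver, was at 4.71 and 4.39 in Cdx2null SI SCs, against 3.57 and 3.43 in control Sto SCs and a mean of 5.42 in control SI SCs, and so lay between the organs. The other named higher genes (Snord82, Pcdhb16, Gm26504, Parp8, Cers3, Bpifb5 and Fanca) had gaps between 0.553 and 0.747. All of these but Parp8 and Fanca also lay above every sorted control array of both organs.

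Not all markers used by the study told the sorted control SCs apart, and 6 of 12 gastric and 3 of 16 intestinal ones differed by less than 1 log2 unit between the organs. Over the 6 gastric markers that did differ, 5.98% to 14.6% of the distance was left in Cdx2null SI SCs by group means. These means hide unlike arrays. By single arrays Muc1 had 24.2% and -3.13% left, and Cldn18 23.1% and 3.43%. Pgc was at 11.17 and 8.07 in Cdx2null SI SCs, on either side of 9.71 and 9.84 in control Sto SCs. Control SI SCs had 9.47, 6.70 and 9.73 of Pgc, so the organs overlapped. Over the 13 intestinal markers that differed, 10 lay within 20% of the distance from the stomach by group means. Smoc2 (24%), Cdh17 (34.4%) and Cdca7 (36.6%) kept more. Of all 12 gastric markers measured, 0 were called. Without overlap 4 were lower (33.3%) and 0 higher in Cdx2null SI SCs, beside 13.5% and 10.2% of all genes. Their median difference was -0.22 (-0.02 without the library labelled Cdx2null SI SCs 2). Part of these markers were reported as changed on these same samples, so they do not give independent evidence of direction. Tff2, a trefoil peptide of neck and pyloric gland cells, was at 11.18 and 11.36 in Cdx2null SI SCs, against 12.11 and 12.05 in control Sto SCs and 6.13 to 6.86 in control SI SCs. Thus a difference of -0.81 (SE 0.24, adjusted p = 1) remained beside a difference of 5.54 between the organs. Muc6, the pyloric gland mucin, overlapped (12.34 and 12.49 in Cdx2null SI SCs, 12.65 and 12.44 in control Sto SCs). Muc5ac, the mucin of surface pit cells, was at 3.59 and 3.70 in Cdx2null SI SCs, against 4.60 and 4.45 in control Sto SCs and 3.52 to 3.67 in control SI SCs. All of these Muc5ac levels were low, since stomach organoids in SI medium had 12.28 and 12.03 and the stomach organoid in Sto medium had 3.59. Cblif, the gastric intrinsic factor, was at 10.56 and 8.99 in Cdx2null SI SCs, against 10.72 and 10.22 in control Sto SCs and 4.79 to 5.37 in control SI SCs.

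Of all 16 intestinal markers, 0 were called. Without overlap 4 were higher (25%) and 2 lower (12.5%), beside 10.2% and 13.5% of all genes. Their median difference was 0.11 (0.03 without control Sto SCs 1). Olfm4, a crypt stem cell glycoprotein, was at 3.79 and 3.70 in Cdx2null SI SCs, against 3.62 and 3.97 in control Sto SCs and 6.33 to 9.23 in control SI SCs. Muc13, an intestinal transmembrane mucin, was at 3.73 and 3.30 in Cdx2null SI SCs, against 3.56 and 3.48 in control Sto SCs and 8.69 to 10.07 in control SI SCs. For both genes the groups overlapped, far below the intestinal arrays. Smoc2, a matricellular protein of crypt stem cells, was at 8.38 and 8.44 in Cdx2null SI SCs, against 7.65 and 7.94 in control Sto SCs and 10.06 to 10.72 in control SI SCs. Cdh17, the liver-intestine cadherin, was at 8.44 and 6.04 in Cdx2null SI SCs, against 4.02 and 6.19 in control Sto SCs and 11.09 to 11.51 in control SI SCs, so that the second array overlapped the stomach and the first did not.

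limma called 0 members of any gene list. Among the lists, proliferation had the largest share of members higher without overlap. All 24 proliferation genes had a positive difference (0.04 to 0.45, median 0.27), and 16 of them (66.7%) were higher in Cdx2null SI SCs without overlap and 0 lower, against 10.2% and 13.5% of all genes. Mki67 was at 10.38 and 10.70 in Cdx2null SI SCs, against 9.95 and 10.26 in control Sto SCs and 10.17 to 10.90 in control SI SCs. Cenpa, the centromeric histone, was at 8.61 and 8.45 in Cdx2null SI SCs, against 8.08 and 8.22 in control Sto SCs. These differences were small beside the gaps above, and the list median stayed between 0.19 and 0.33 when any of the 4 arrays was left out.

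Of 14 genes of gastric pit cells, 6 (42.9%) were lower without overlap and 0 higher, beside 13.5% and 10.2% of all genes. Their median of -0.40 was -0.25 without the library labelled Cdx2null SI SCs 2. Paneth cell genes had 4 of 8 lower (50%) and 1 higher (12.5%). Their median of -0.06 was 0.04 without the library labelled Cdx2null SI SCs 1. Tff1, the trefoil peptide secreted with Muc5ac, was at 7.32 and 5.98 in Cdx2null SI SCs, against 7.77 and 8.03 in control Sto SCs and 5.15 to 5.63 in control SI SCs. Psca, a surface antigen of gastric epithelium, was at 6.98 and 6.68 in Cdx2null SI SCs, against 8.22 and 7.41 in control Sto SCs. Gkn1, gastrokine 1, was at 5.96 and 5.87 in Cdx2null SI SCs, against 6.48 and 6.44 in control Sto SCs, and Sult1c2, a sulfotransferase, was at 7.88 and 7.64 against 9.75 and 8.43. In each of the 4 the Cdx2null arrays lay above the intestinal controls but short of the stomach.

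Chief cell genes had 4 of 12 lower (33.3%) and 0 higher without overlap, beside 13.5% and 10.2% of all genes. Their median of -0.24 was 0.07 without the library labelled Cdx2null SI SCs 2. Bhlha15 (Mist1), a factor that builds the secretory apparatus, was at 7.83 and 6.93 in Cdx2null SI SCs, against 8.72 and 7.88 in control Sto SCs. Genes of neck and pyloric glands had 2 of 12 lower (16.7%, beside 13.5% of all genes), 0 higher and a median of -0.14 that was 0.19 without the library labelled Cdx2null SI SCs 1. Foregut transcription factors had 4 of 25 lower (16%), Nkx6-3, Meis2, Foxa2 and Osr1, and 0 higher, a lower share close to that of all genes. Their median of -0.04 was 0.01 after centring the arrays on their medians and -0.16 without control Sto SCs 2. Of these, Foxa2, a pioneer factor of endoderm, was at 7.93 and 7.58 in Cdx2null SI SCs, against 8.23 and 8.27 in control Sto SCs.

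Of 19 intestinal stem cell genes, 5 (26.3%) were higher without overlap (Smoc2, Rgmb, Rnf43, Cdca7 and Slc14a1) and 1 (5.26%) lower (Dach1). Over all genes the shares were 10.2% higher and 13.5% lower. The list's median of 0.36 was 0.06 without the library labelled Cdx2null SI SCs 2 and 0.14 without control Sto SCs 1. Rnf43, a ubiquitin ligase that curbs Wnt receptors, was at 11.36 and 11.65 in Cdx2null SI SCs, against 10.92 and 11.12 in control Sto SCs. Hox genes had 1 of 33 higher (3.03%) and 6 lower (18.2%), with a mean level of 4.09 and 3.76 in Cdx2null SI SCs and 3.89 and 3.94 in control Sto SCs. Hoxb2, whose groups overlapped, was at 6.99 and 3.79 in Cdx2null SI SCs, against 3.84 and 3.72 in control Sto SCs and 7.80, 6.13 and 3.47 in control SI SCs. Genes induced by tissue dissociation had 0 of 18 separated in either direction, but 16 of the 18 had a negative difference, with a median of -0.31 that was -0.62 with the first Cdx2null array left out and 0.02 with the second left out. Their mean level was 10.03 and 9.44 in Cdx2null SI SCs and 10.25 and 9.78 in control Sto SCs, and their part in the differences above was not tested. Housekeeping genes had 4 of 13 higher (30.8%) and 0 lower, with a median of 0.06 that was 0 after quantile normalisation.

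**Figure D3:**
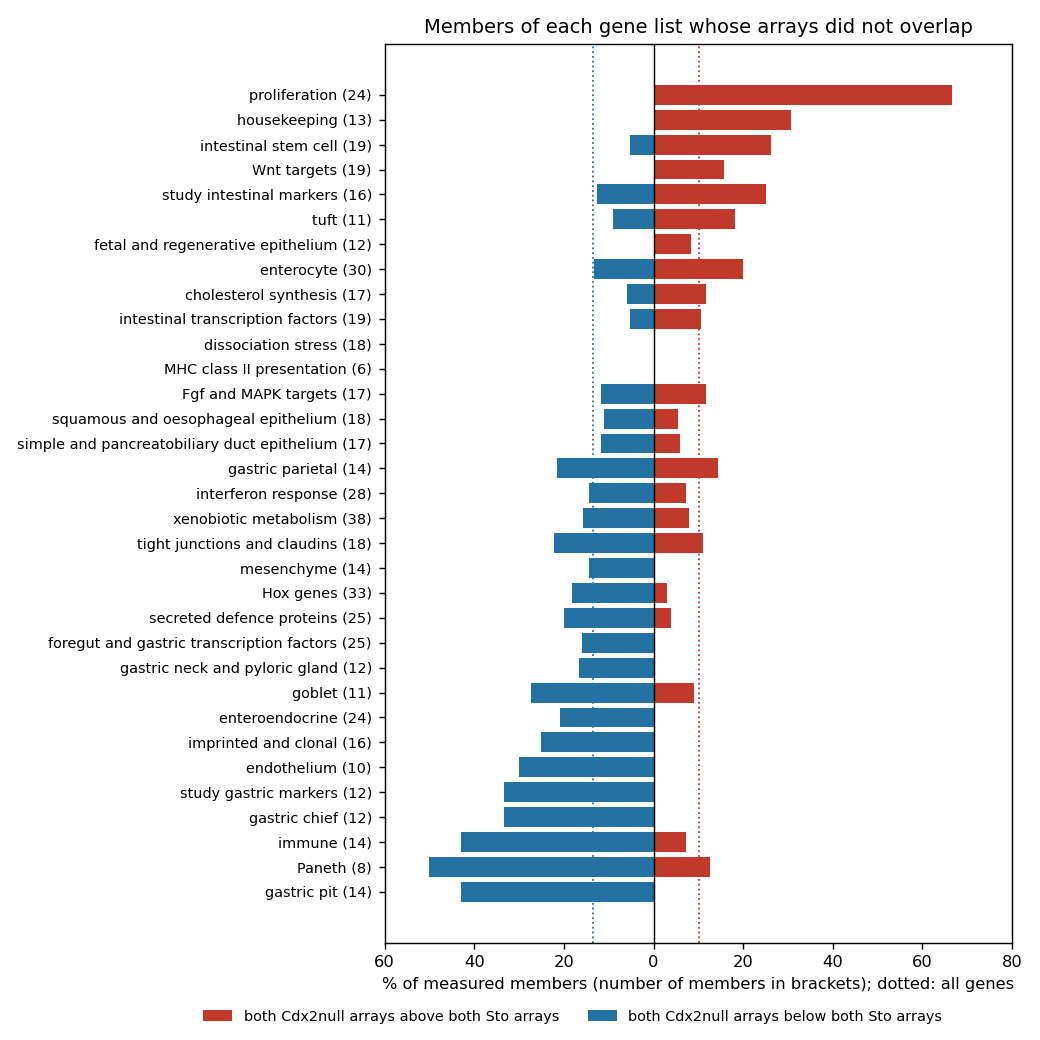
Share of the measured members of each gene list (number of members in brackets) whose Cdx2null arrays both lay above (red, right) or both below (blue, left) the stomach arrays, in percent, with dotted lines for all genes (10.2% above, 13.5% below). The list of sex-linked genes is not shown. Proliferation has 16 of 24 above and 0 below, and gastric pit 0 above and 6 of 14 below.

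How far each Cdx2null array had moved was then measured on genes taken from the organoids. Of the 371 genes called between organoids, 267 also differed in the same direction by at least 1 log2 unit between the sorted control SCs of the organs, 113 higher in stomach and 154 higher in small intestine. The distance left is 0% at the stomach mean and 100% at the intestinal mean, both of them means of sorted arrays, so it is a description. For genes of the stomach the median distance left was 36.9% in the library labelled Cdx2null SI SCs 1 and 7.55% in the library labelled Cdx2null SI SCs 2. For genes of the small intestine it was 13.1% and -0.844%. On the first array 42 of 113 stomach genes and 37 of 154 intestinal genes had over 50% of the distance left, and on the second 3 and 3. By these medians more distance was left for stomach genes than for intestinal genes on both arrays, a difference that was not tested.

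Only 4 of the 267 genes had over 50% of the distance left on both arrays. Rarb and the Paneth cell metalloproteinase Mmp7 were the intestinal ones, with 94.7% and 89.3% left for Rarb and 77.2% and 53.5% for Mmp7. Other Paneth cell genes of the 267 did not share this, since Defa24 had 0.519% and 4.59% left and Ang4 -9.52% and -14.3%. Mmp7 was at 11.31 and 10.82 in Cdx2null SI SCs, against 8.62 and 10.81 in control Sto SCs, so the second array all but met a stomach array. Cbr2, a carbonyl reductase, and Tspan2, a tetraspanin, were the stomach ones. Cbr2 was at 4.21 and 4.86 in Cdx2null SI SCs, against 4.86 and 7.29 in control Sto SCs, so its arrays touched. Tspan2 was at 5.14 and 5.39 in Cdx2null SI SCs, against 5.68 and 6.43 in control Sto SCs. Nkx6-3 is not among the 267 since it was not called between organoids.

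**Figure D4:**
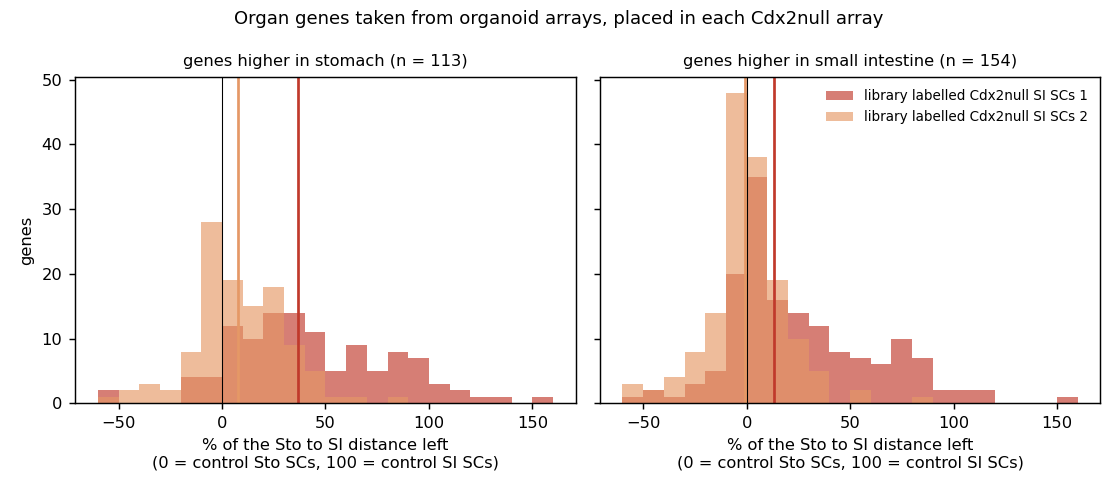
Number of genes (vertical axis) by the percentage of the stomach to intestine distance left in each Cdx2null array, for 113 genes higher in stomach and 154 higher in small intestine, with medians as vertical lines and values beyond the axis placed in the end bins. The first array has medians of 36.9% and 13.1% and a tail to the intestinal level, and the second has 7.55% and -0.844%.

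The 2 Cdx2null arrays differed from each other more than the stomach arrays did, with 749 genes at least 2-fold apart against 464. At least 4-fold apart were 146 genes between the Cdx2null arrays and 82 between the stomach arrays. Of those 146, 103 differed by at least 1 log2 unit between the organs, and in 88 of the 103 the first array lay nearer the intestine and the second nearer the stomach, against 7 the other way round. The second Cdx2null array and the second stomach array were the closest pair, with 256 genes at least 2-fold apart. The following genes were chosen after their values were seen.

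Sox2, a foregut factor that keeps stomach and oesophagus from intestinal fate, was at 3.68 and 9.83 in Cdx2null SI SCs, against 9.40 and 10.07 in control Sto SCs and 3.82 to 4.85 in control SI SCs. It was at the intestinal level on the first array and at the stomach level on the second. The potassium channel Kcnj15 was at 6.50 and 10.47 in Cdx2null SI SCs, against 9.75 and 9.96 in control Sto SCs, and Cxcl17 was at 6.55 and 10.13 against 11.08 and 10.74. The RNA-binding protein gene Qk was at 3.82 and 8.57 in Cdx2null SI SCs, against 8.52 and 8.37 in control Sto SCs. In these the first array kept wholly or partly to the intestinal side. Among intestinal genes the water channel Aqp1 was at 9.51 and 5.94 in Cdx2null SI SCs, against 5.86 and 5.78 in control Sto SCs, and the T-box factor Tbx3 was at 7.32 and 4.48 against 4.31 and 4.59. With the second Cdx2null array left out, limma called 17 genes between the first array alone and control Sto SCs, 5 higher and 12 lower, among them Adgrg7, Sox2, Qk, Gnai1, Cxcl17, Aqp1 and Cd244a, the lone array being assumed to vary like the other groups. With the first left out it called 0. The Cdx2 level of 8.41 moved with these genes, and its part was not tested.

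In 20 genes the arrays of both groups were at least 4-fold apart, 18 of them in the same direction and 17 with array 2 higher in both. Irx5, an Iroquois homeobox factor, was at 3.83 and 8.35 in Cdx2null SI SCs, against 3.78 and 8.21 in control Sto SCs and 3.82 to 3.89 in control SI SCs. Its neighbour on chromosome 8, the long noncoding RNA gene Crnde, was at 3.35 and 8.09 in Cdx2null SI SCs, against 3.32 and 7.25 in control Sto SCs. Irx3, with 6 genes between it and Crnde, was at 4.81 and 7.45 in Cdx2null SI SCs, against 4.95 and 7.74 in control Sto SCs. These genes were high on array 2 and low on array 1 of each group, and did not separate the groups. Isl1, a LIM-homeobox factor, was at 3.64 and 7.10 in Cdx2null SI SCs, against 3.82 and 7.26 in control Sto SCs, and Alox15, a lipoxygenase, was at 5.83 and 8.76 against 5.08 and 9.47. Irx5 was at 8.16 in the stomach organoid in Sto medium and at 3.67 to 4.12 in the other 6 organoid arrays.

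**Figure D5:**
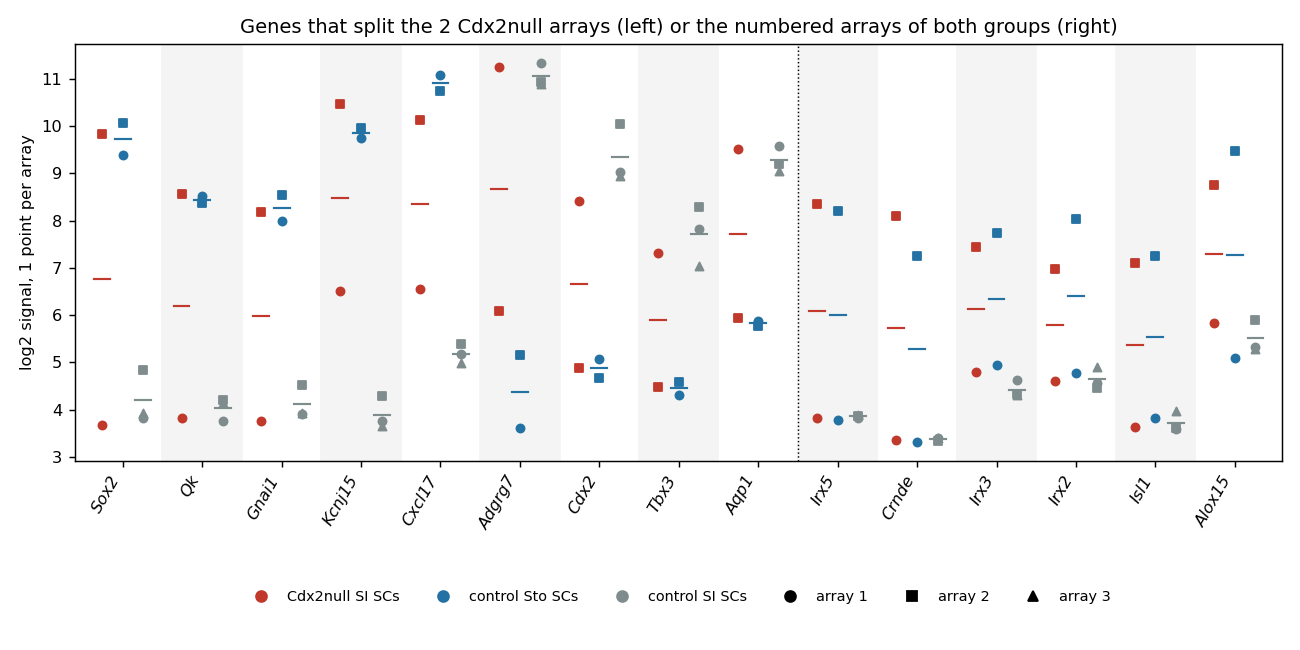
Log2 signal on each array (circles array 1, squares array 2, triangles array 3, bars are group means) for Cdx2null SI SCs (red), control Sto SCs (blue) and control SI SCs (grey). Left of the dotted line are genes that split the Cdx2null arrays, such as Sox2 at 3.68 and 9.83, and right of it genes high on array 2 of both Cdx2null SI SCs and control Sto SCs, such as Irx5 at 8.35 and 8.21.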

How the data were processed

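Mouse Gene ST 1.1 arrays (Affymetrix) were used for RNA of 14 samples. The authors deposited log2 expression values summarised per probe set with RMA-sketch, which includes background correction and normalisation between arrays, and the values were used as deposited. The arrays control SI SCs 3 and SI organoids SI med 3 had been exported differently, since 100% of their values were log2 of signals rounded to 1 decimal. Low signals have a floor, so folds of dim genes are compressed, and precision is set by the small number of arrays. Samples were grouped by their labels.

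Of 35556 probe sets, 21218 had 1 gene symbol, 1881 several and 12457 none in the platform's annotation, and only the first were used. Symbols were updated through RefSeq (GRCm38.p6). For 1386 genes with several probe sets that with the highest mean level stood for the gene, giving 18820 genes.

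Stem cell groups were compared with limma 3.58.1 (R 4.3.3, lmFit and eBayes) on the 7 sorted arrays, and organoids by origin with medium as an additive term, 2-sided, with Benjamini-Hochberg adjustment over all genes. A gene was called at an adjusted p under 0.05 and a log2 difference of at least 1. The gap of a gene is the difference between the nearest arrays of the groups. The fits were tested on simulated data.

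Alternatives covered the samples in the fit, the test, the normalisation, a filter on dim genes, the choice of probe set, a replicate block and leaving out arrays. The genes from organoids and the list medians under other settings were added after seeing the data. Named are Cdx2, Lgr5 and the study's markers, the 15 genes with the largest gaps in each direction, genes on the intestinal side or outside both organs, and list members with a gap of at least 1. All other genes, such as list members with smaller gaps, those called between organoids and those that split the arrays, were named after their values were seen. The members and lists were chosen with earlier results of these data known.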

Additional observations from a re-analysis of the deposited data

How the results depend on the processing

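limma called 0 genes between Cdx2null SI SCs and control Sto SCs under every alternative run except those given here. The count was 17 without Cdx2null replicate 2 (range 0 to 17 over the arrays left out) and 15 by the methods' t-test at an unadjusted p under 0.05 with a 2-fold difference. With a replicate block it was 0, with 930 genes at an unadjusted p under 0.05. That is about as many as the threshold alone would list if no gene differed. The array numbers are not stated to pair samples, and the differences between array 1 and array 2 correlated across genes at r = 0.38 between Cdx2null SI SCs and control Sto SCs, 0.23 between Cdx2null SI SCs and control SI SCs and 0.38 between the controls, genes not being independent replicates. Between same-numbered arrays, 12 of the 18 dissociation genes were lower in Cdx2null SI SCs in both and 0 higher in both. The block changed no other call.

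The 17 genes with a gap of at least 1 became 11 among genes with a mean above 6, 99 at a gap of 0.5 and 98 to 291 with an array left out, of which the intestinal side held 37 to 202 and those outside both organs 4 to 47. Genes outside both organs numbered 1 with a mean above 6. Quantile normalisation kept 14 of the 17 and centring on array medians 13. Of all separated genes 43.1% were higher in Cdx2null SI SCs, and this was 52.6% after quantile normalisation and 65.8% after centring, so the direction of small gaps depended on the scaling. At a gap of 0.5 the lower share was 78.8%, against 74.2% and 70% under those settings. The organoid count of 0 became 371 without the library labelled SI organoids SI med 1.

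Some markers changed sign, none of them called under any setting. After centring Olfm4 was at 0.0097 and Muc13 at 0.0529, and Muc13 was at 0.0268 after quantile normalisation. With an array left out the differences ranged as follows, lowest to highest: Lgr5 -0.17 to 0.36, Olfm4 -0.22 to 0.13, Muc13 -0.22 to 0.21, Reg4 -0.0537 to 0.21, Muc2 -0.73 to 0.79, Tff3 -0.29 to 0.10, Lyz1 -1.20 to 3.96, Clca4a -0.0381 to 0.35, Clca4b -0.16 to 0.30, Msi1 -0.36 to 0.71, Cblif -1.48 to 0.09, Pgc -1.71 to 1.40, Muc1 -1.34 to 0.17, Shh -0.14 to 0.21, Atp4a -0.55 to 0.0344 and Atp4b -0.37 to 0.0153. The cause was not tested.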
